A study of Mus musculus with 6 samples.

Results

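Atrial RNA of 6 old mice was sequenced, and 9 genes of neurohumoral signalling are described. They are the adrenergic receptors Adra1a, Adra1b and Adrb1, the muscarinic receptor Chrm2, the adenosine receptor Adora1, the angiotensin receptor Agtr1a, the endothelin receptors Ednra and Ednrb, and Ace, an enzyme and not a receptor. They were chosen by name as genes that act on atrial muscle, 9 of the 54838 genes counted, and 8 of them had counts and were among the 14708 genes tested. Ednra was listed at 0 in every library. The labels name PKC-epsilon knockout mice (KO, mouse line JAX stock #004189), and wild-type controls (WT, mouse line C57BL/6J), with 3 mice and 1 library each, both sexes used, at an average age of 20.9 ± 0.43 months whose error is not explained. The labels do not say how the Prkce allele was disrupted or in which cells.

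Noradrenaline, angiotensin II and endothelin reach heart muscle through receptors coupled to the G protein Gq. Gq activates phospholipase C, whose product diacylglycerol switches on the calcium-independent kinase PKC-epsilon, so these receptors stand upstream of the deleted kinase. The receptors Chrm2 and Adora1 act through Gi and slow the atria by opening the potassium channel that acetylcholine gates, while Adrb1 acts through Gs to raise rate and force.

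For 4 of the 6 libraries, the labels contradict each other on genotype. Here KO and WT replicates are named by library name, and the genotype field puts KO replicate 1 with WT replicates 2 and 3 as KO, and KO replicates 2 and 3 with WT replicate 1 as WT. Both readings were tested. KO replicate 1 and WT replicate 1 carry the same label in both, and the 4 other libraries swap sides. Among those 4 the readings thus give the same contrast with the opposite sign. The names of KO replicate 1 and WT replicate 1 begin with Old, and those of the 4 others with a number (the numbered series). Agreement of the labels therefore coincides with the library series. Prkce, the targeted gene, had 9.20, 5.15 and 28.6 CPM (counts scaled by TMM-corrected library size) in KO replicates 1, 2 and 3, against 36.2, 11.7 and 30.2 CPM in WT replicates 1, 2 and 3. KO replicate 3 and WT replicate 2 thus went against their names, and KO replicate 2 and WT replicate 3 against their genotype field, so a direction below is one between labels. Total counts ran from 11574206 to 24138824. The summed level of 4 Y-linked genes was 78.9 to 126 CPM in the KO libraries, and 1.08, 1.09 and 146 CPM in WT replicates 1, 2 and 3. It was thus high in all KO libraries by name, and among the WT libraries in replicate 3 alone. A difference by name is therefore largely confounded with sex, and the 2 cannot be told apart here. By genotype field both groups mix high and low Y-linked levels. Atrial cardiomyocyte markers were all detected, 8 of 8, with a summed level of 47309 to 55928 CPM in KO libraries and 46905 to 52941 CPM in WT libraries.

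How the reads were assigned to genes decides which of these genes can be read at all. Of 1345 protein-coding genes whose whole body lies within other genes, 1320 (98.1%) had 0 counts in all 6 libraries, against 19.4% of the 19494 whose body is free over 50% or more. The same held for 962 of the 976 such genes whose exons are at least 80% free of other genes' exons, so an overlap with another gene's intron was enough. Ednra, the endothelin receptor of smooth muscle and heart muscle, is one of these. It lies on chromosome 8 at 77663031 to 77724464 (GRCm38, minus strand), its exons are 98.3% free of other genes' exons, and its whole body lies within the non-coding gene 4933431K23Rik of the other strand. Its 0 counts therefore give no level and no upper limit. Ace (chromosome 11 at 105967945 to 105989964) has 33.7% of its exon length outside the antisense gene Gm11651. Adora1 (chromosome 1 at 134199223 to 134235431) has 65.3% of its exon length outside Mybph, which overlaps it on the other strand. The other 6 have 92.9% to 100% of their exon length free.

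Chrm2, the main muscarinic receptor of heart muscle, was the most abundant of the 8 genes by a wide margin. The gene lies on chromosome 6 at 36388084 to 36528414. Its level was 214, 172 and 194 CPM in KO replicates 1, 2 and 3, against 336, 171 and 240 CPM in WT replicates 1, 2 and 3. WT replicate 1 stood above the other 5 libraries, and the groups overlapped through WT replicate 2. Per kilobase of exon, a scale that allows for exon length but not for reads from introns, its mean level was 36.5 ± 10.3 CPM per kilobase (SD, n = 6). Ednrb, the endothelin receptor best known from endothelium, followed at 16.6 ± 4.1 CPM per kilobase. In every library its level per kilobase was below that of Chrm2, and their ranges did not meet (lowest Chrm2 28.2, highest Ednrb 20.04 CPM per kilobase).

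The middle of the order held 4 genes. Ace, the endothelial enzyme that makes angiotensin II, averaged 7.79 ± 1.89 CPM per kilobase, and Adra1b, one of the alpha-1 receptors for noradrenaline, 6.36 ± 1.30. Agtr1a, the receptor through which angiotensin II contracts vessels and acts on fibroblasts, averaged 4.69 ± 0.87, and Adrb1, the beta receptor of the cardiomyocyte, 3.47 ± 0.44 CPM per kilobase. The ranges of these neighbours overlapped, although Adra1b exceeded Agtr1a, and Agtr1a exceeded Adrb1, in 6 of 6 libraries, and Ace exceeded Adra1b in 4 of 6. The place of Ace depends on its length: divided by the exon bases that no other gene covers, an alternative added after the data were seen, it averaged 23.1 CPM per kilobase, above Ednrb at 16.6. Adora1, the receptor through which adenosine slows the sinus node and atrioventricular conduction, averaged 1.13 ± 0.41 CPM per kilobase, or 1.73 over its free exons. Adra1a, the alpha-1 receptor linked to contraction and survival of heart muscle, was lowest at 0.148 ± 0.060 CPM per kilobase, below every other gene of the set in every library. Since whole gene bodies appear to have been counted, reads from introns may add to each level, to an extent that was not tested.

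**Figure D1:**
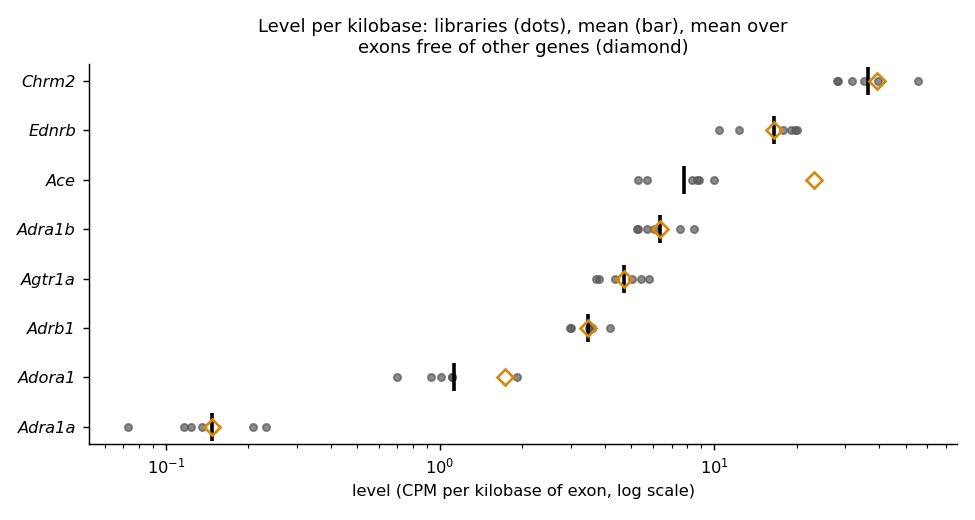
Level of the 8 genes with counts, in CPM per kilobase of exon on a log scale. Dots are the 6 libraries, bars their mean, and diamonds the mean divided by the exon length free of other genes; Chrm2 averaged 36.5 and Adra1a 0.148, and the diamond of Ace lies at 23.1 against its bar at 7.79.

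Within each receptor family 1 subtype was usually dominant on this scale, to which reads from introns may add. Chrm2 made up 95.9% to 97.95% of the summed muscarinic level per kilobase, and Chrm3, the Gq-coupled subtype of smooth muscle and glands, 2.05% to 3.39%. Chrm1 and Chrm4 had 0 to 7 counts per library, and Chrm5 had none. Adra1b made up 86.7% to 94.0% of the alpha-1 level per kilobase, ahead of Adra1d (3.38% to 9.47%) and Adra1a (1.12% to 3.80%). Adra1d has 64.7% of its exon length free of other genes, against 100% for Adra1a and Adra1b, so its share may be understated. Agtr1a accounted for all angiotensin receptor counts in 5 libraries and for 98.3% of the level in KO replicate 1, where Agtr2 had 6 counts. Agtr1b had 0 counts throughout.

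The adenosine receptors were more evenly divided. Adora1 made up 69.1% of the adenosine receptor level in KO replicate 2 and 29.95% to 45.5% in the other 5 libraries. Adora2a, the vasodilator subtype, made up most of the rest, with 26.6% to 56.9%. Adora1 has 65.3% of its exon length free and Adora2a 100%, so the share of Adora1 may be understated, and the order of the 2 is not settled. Adora3 was listed at 0 and has 0.118% of its body free.

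**Figure D2:**
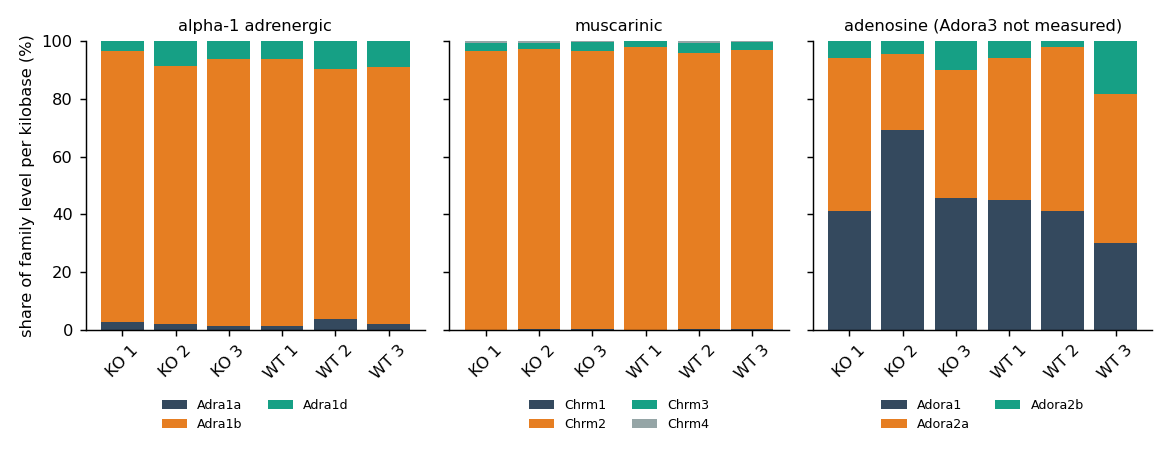
Share of each subtype in the summed level per kilobase of its receptor family, in percent, for each library (KO libraries on the left, WT libraries on the right, by name). Chrm2 and Adra1b fill most of their families in all 6 libraries, at 95.9% or more and 86.7% or more, while Adora1 shares its family with Adora2a and Adora2b. Adora1 was counted over 65.3% and Adra1d over 64.7% of its exon length.

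The main comparison asked whether these genes differ between KO and WT atria, and none of the 8 passed the test in either reading of the labels. By library name 0 of 14708 genes passed edgeR's quasi-likelihood test at an adjusted p of 0.05 (0%), with 219 at an unadjusted p under 0.05, and DESeq2 and limma-voom also called 0. Of the 8 genes, 3 had a fold change above 0 and 5 below it (above 0 for 45.5% of all genes), with a median log2 fold change of -0.08 beside -0.02 over all genes tested. By genotype field 2 of the 14708 genes passed (0.0136%), Gm26917 and Myl2, neither of them a member. In that reading the 8 again had 3 fold changes above 0 (48.1% of all genes) and a median of -0.06 beside -0.01. The groups of 3 did not overlap for 1 of the 8 genes by library name, beside 5.95% of all genes, and for 1 by genotype field, beside 12.0%. With the replicate number as a block the genotype field gave 51 genes, again with no member; the smallest adjusted p among the 8 in that fit was 0.204, for Ace.

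**Figure D3:**
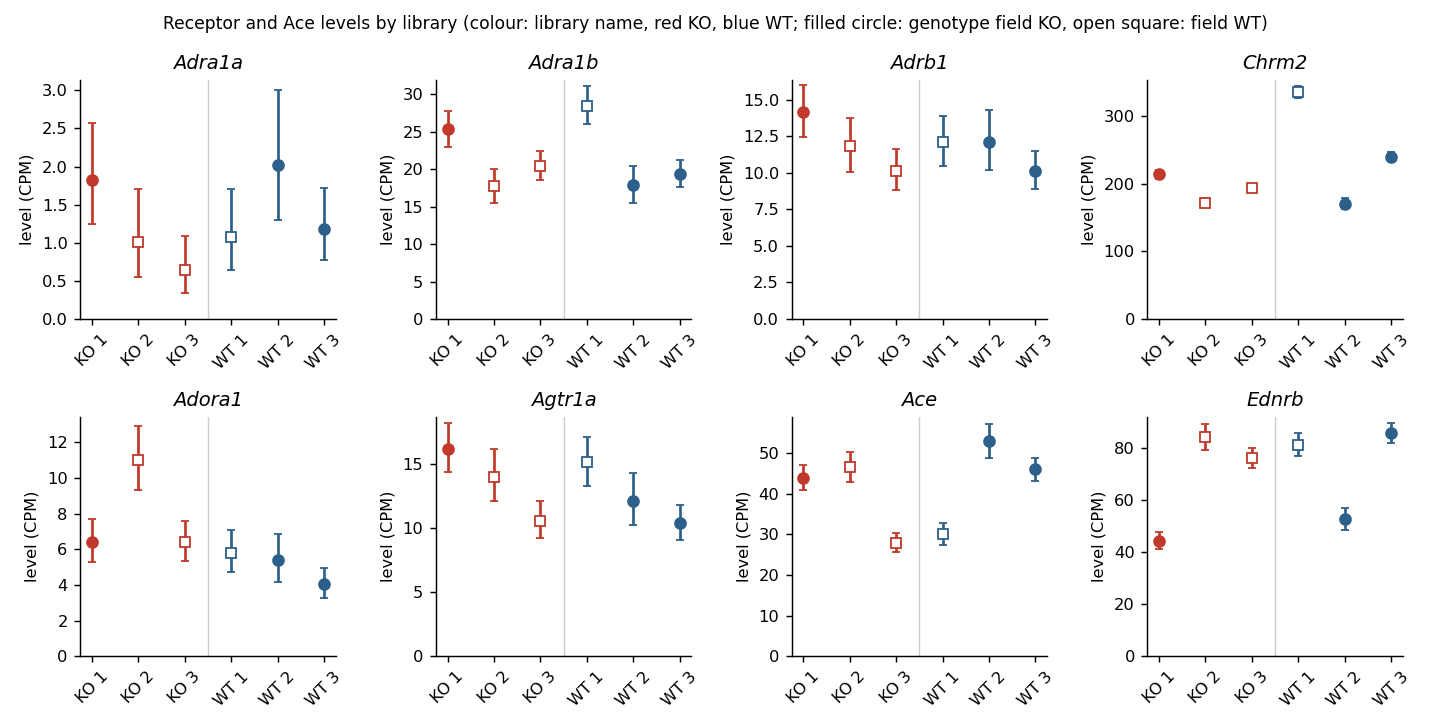
Level in CPM of the 8 genes in each library, with 95% Poisson intervals that cover counting error only. Red is KO and blue WT by library name, filled circles have the genotype field KO and open squares the field WT; only Adora1 has all red points above all blue points, and only Adra1a all filled circles above all open squares.

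Among the alpha-1 receptors, Adra1b was nearly level between the groups. Adra1b (chromosome 11 at 43774606 to 43901210) had 25.3, 17.7 and 20.4 CPM in KO replicates 1, 2 and 3, against 28.5, 17.8 and 19.3 CPM in WT replicates 1, 2 and 3. Replicate 1 of each label was the highest, and the groups overlapped. The log2 fold change was -0.05 (SE 0.22) by library name and -0.09 (SE 0.21) by genotype field, and edgeR gave adjusted p values of 0.99993 and 0.962.

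Adra1a (chromosome 14 at 66635251 to 66771168) had few counts, 13 to 32 per library. Its level was 1.82, 1.02 and 0.636 CPM in KO replicates 1, 2 and 3, against 1.08, 2.02 and 1.18 CPM in WT replicates 1, 2 and 3. By library name the groups overlapped, at a log2 fold change of -0.29 (SE 0.52), which did not pass (edgeR adjusted p = 0.99993). By genotype field every KO library lay above every WT library, at 1.67 ± 0.44 CPM for the field KO and 0.910 ± 0.239 CPM for the field WT (SD, n = 3 each). The log2 fold change was 0.87 (SE 0.45), again short of the threshold (edgeR adjusted p = 0.904). Such a separation in this direction was held by 7.48% of all genes tested, and neighbouring libraries in the order of Adra1a had overlapping Poisson intervals.

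The summed level of ventricular muscle markers ran in the same order over the libraries as Adra1a, a match noticed after the values were seen. The 4 ventricular markers, all detected, summed to 550, 421 and 303 CPM in WT replicate 2, KO replicate 1 and WT replicate 3, whose field is KO. In the libraries with the field WT they summed to 113, 106 and 90.5 CPM in WT replicate 1, KO replicate 2 and KO replicate 3. The sum was nearly all Myl2 and Myl3, ventricular myosin light chains, and of the 4 genes Myl3 alone kept the full order. Myl2 was also 1 of the 2 genes that passed the test by genotype field. Myl2 placed KO replicate 3 (33.4 CPM) above KO replicate 2 (25.7 CPM) and WT replicate 1 (32.6 CPM). The transcription factor Irx4 was under 1 CPM in every library and at 0 in WT replicate 1, and Hey2, another, was lower in WT replicate 2 (2.78 CPM) than in KO replicate 2 (3.77 CPM). Their part in the level of Adra1a was not tested. In bulk tissue, fewer cells of a type and less RNA per cell cannot be told apart.

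**Figure D4:**
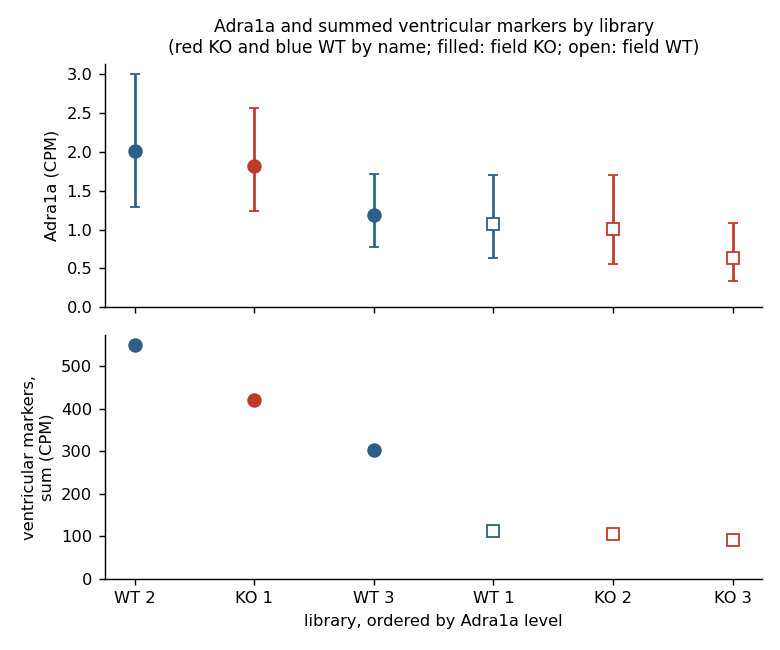
Adra1a level (top, CPM, with 95% Poisson intervals) and the summed level of 4 ventricular markers (bottom, CPM) in the 6 libraries, ordered by Adra1a. Red is KO and blue WT by library name, filled symbols have the field KO; Adra1a and the sum place the libraries in the same order, with the sum at 303 or above for the field KO and at 113 or below for the field WT.

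Adrb1 was the steadiest of the set. It lies on chromosome 19 at 56722199 to 56733113 and had 14.1, 11.8 and 10.1 CPM in KO replicates 1, 2 and 3, against 12.1, 12.1 and 10.1 CPM in WT replicates 1, 2 and 3. The groups overlapped. Its SD over the 6 libraries was 0.18 on the log2 scale, against a median of 0.26 over 13587 genes with a mean of at least 1 CPM, and counting error alone would give 0.10. The log2 fold change was 0.07 (SE 0.21) by library name and 0.09 (SE 0.20) by genotype field.

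Of the Gi-coupled receptors, Chrm2 was lower and Adora1 higher by library name, neither past the test. Chrm2 averaged 193 ± 21 CPM in KO libraries and 249 ± 83 CPM in WT libraries (SD, n = 3 each), and its log2 fold change was -0.37 (SE 0.22), with an edgeR adjusted p of 0.99993. The value rests on WT replicate 1: without that library it was -0.09. By genotype field it was -0.17 (SE 0.25), and without WT replicate 1 it turned to 0.18. Without KO replicate 3 and WT replicate 2, the libraries at odds with Prkce by name, Chrm2 stood at -0.58 (SE 0.22, adjusted p = 0.9985).

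Adora1 had 6.42, 11.02 and 6.41 CPM in KO replicates 1, 2 and 3, against 5.82, 5.39 and 4.03 CPM in WT replicates 1, 2 and 3. All KO libraries lay above all WT libraries by name, as did 3.33% of the genes tested, and KO replicate 2 stood well above the rest. The means were 7.95 ± 2.66 CPM in KO libraries and 5.08 ± 0.93 CPM in WT libraries (SD, n = 3 each). The log2 fold change was 0.65 (SE 0.29), with an unadjusted p of 0.049, a level reached by 1.49% of genes, and an edgeR adjusted p of 0.99993. Without KO replicate 2 it was 0.34. By genotype field, where KO replicate 2 counts as WT, the sign was the opposite, at -0.55 (SE 0.30; edgeR adjusted p = 0.904). That value rests on the same library: it was -0.22 without KO replicate 2, and -0.06 (SE 0.32) without KO replicate 2 and WT replicate 3, the libraries at odds with Prkce by field. Neuronal markers differed in the same direction by name: 5 of 6 were detected, with Slc18a3 at 0, and they summed to 37.1 to 45.3 CPM in KO libraries and 25.6 to 26.1 CPM in WT libraries. Most of that sum was Dbh, the enzyme that makes noradrenaline, and its part in Adora1 was not tested.

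The angiotensin genes gave no difference that held across readings. Agtr1a (chromosome 13 at 30336441 to 30382867) had 16.2, 14.0 and 10.6 CPM in KO replicates 1, 2 and 3, against 15.1, 12.1 and 10.4 CPM in WT replicates 1, 2 and 3. The groups overlapped, and the KO library was the higher in each of the 3 pairs of equal replicate number, by 0.10, 0.21 and 0.03 on the log2 scale. The log2 fold change was 0.12 (SE 0.23) by library name and -0.04 (SE 0.22) by genotype field. Fibroblast markers (5 of 6 detected, Tcf21 at 0) summed to 1481 to 1958 CPM in KO libraries and 1723 to 1778 CPM in WT libraries, and pericyte markers (5 of 5) to 559 to 750 and 642 to 683 CPM.

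Ace had 43.9, 46.5 and 27.9 CPM in KO replicates 1, 2 and 3, against 30.04, 52.9 and 45.9 CPM in WT replicates 1, 2 and 3. KO replicate 3 and WT replicate 1 were low, outside the Poisson intervals of the other 4, which lay between 43.9 and 52.9 CPM. By library name its log2 fold change of -0.13 (SE 0.24) did not pass (edgeR adjusted p = 0.99993). By genotype field Ace averaged 47.6 ± 4.7 CPM for the field KO and 34.8 ± 10.2 CPM for the field WT (SD, n = 3 each), a log2 fold change of 0.45 (SE 0.19). Its unadjusted p was 0.040, under the level reached by 5.69% of genes, and its edgeR adjusted p 0.868. The groups overlapped through KO replicate 2, whose field is WT. Without that library the value was 0.72 (SE 0.16, edgeR adjusted p = 0.599), and without WT replicate 3 as well 0.73 (SE 0.19, edgeR adjusted p = 0.837). Leaving out KO replicate 3 instead, a low library whose field is also WT, brought it down to 0.32. Endothelial markers, 6 of 6 detected, summed to 880 CPM in KO replicate 3, the lowest of the 6 libraries. They summed to 928 CPM in WT replicate 1, within the 909 to 1089 CPM of the other 4. Smooth muscle, macrophage and brown adipocyte markers had their lowest sums in KO replicate 3 and WT replicate 1. Those sums were 193 and 133, 276 and 264, and 385 and 230 CPM, against 215 to 350, 313 to 366 and 398 to 540 CPM in the other 4. The part of any of these in Ace was not tested.

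Ednrb, the only endothelin receptor with a readable level, split the libraries 4 to 2. It lies on chromosome 14 at 103814625 to 103844402 and had 44.4, 84.1 and 75.9 CPM in KO replicates 1, 2 and 3, against 81.1, 52.7 and 85.5 CPM in WT replicates 1, 2 and 3. KO replicate 1 and WT replicate 2 were low, and the groups by name overlapped; the log2 fold change was -0.10 (SE 0.25; edgeR adjusted p = 0.99993). By genotype field it averaged 60.9 ± 21.7 CPM for the field KO and 80.4 ± 4.1 CPM for the field WT (SD, n = 3 each), which is -0.40 on the log2 scale (SE 0.22; edgeR adjusted p = 0.904). WT replicate 3, whose field is KO but whose Prkce is high, kept those groups overlapping. Without it and KO replicate 2, the other library at odds with its field, the value was -0.71 (SE 0.18, edgeR adjusted p = 0.837). Leaving out KO replicate 1 instead, the lowest library, gave -0.22. Endothelial markers summed to 909 CPM in KO replicate 1 and 954 CPM in WT replicate 2, within the range of 880 to 1089 CPM of the other 4. Schwann cell markers (6 of 6) summed to 48.4 CPM in KO replicate 1 and 68.9 CPM in WT replicate 2, the lowest and the highest of all libraries. The part of either in Ednrb was not tested.

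**Figure D5:**
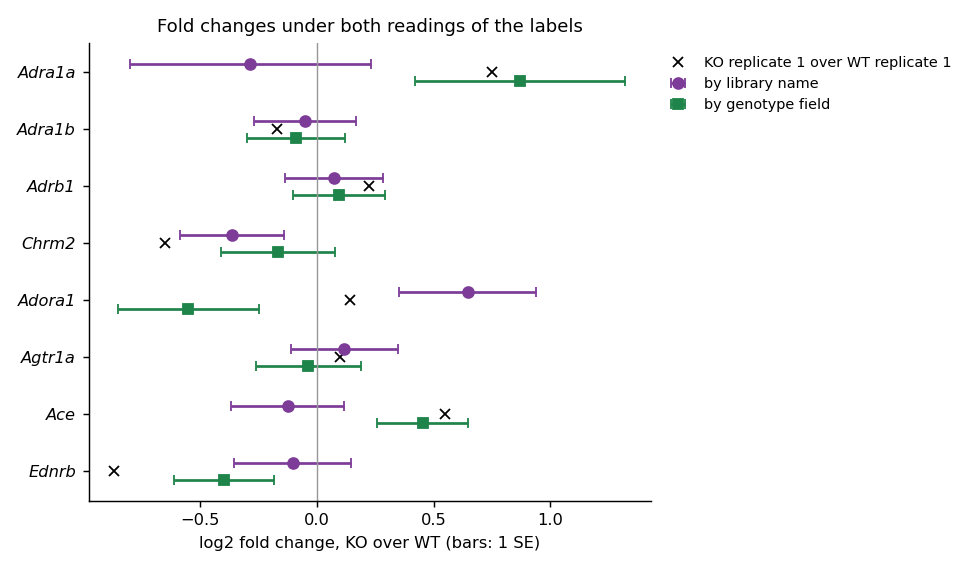
Log2 fold change, KO over WT, of the 8 genes by library name (purple circles) and by genotype field (green squares), with bars of 1 SE, and the single ratio of KO replicate 1 over WT replicate 1 (crosses). Adora1 has opposite signs in the readings, 0.65 and -0.55, while Adra1b and Adrb1 lie within 0.10 of 0 in both.

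The only libraries whose labels agree throughout, KO replicate 1 and WT replicate 1, also differ in Prkce as labelled, with 9.20 and 36.2 CPM. They are 1 mouse each, so their ratios have no replicate check, and the mice also differ in Y-linked expression (126 and 1.08 CPM). Ednrb was 1.83-fold lower in the KO library, with a fold of 0.547 (95% counting interval 0.501 to 0.598). Chrm2 was 1.57-fold lower, at 0.637 (0.611 to 0.664). Ace was higher, at 1.46 (1.30 to 1.64), and Adra1a, with few counts, was at 1.68 (0.917 to 3.19). The intervals of Adra1b (0.889, 0.780 to 1.01), Adrb1 (1.17, 0.966 to 1.41), Agtr1a (1.07, 0.901 to 1.27) and Adora1 (1.10, 0.834 to 1.46) included 1. A ratio past 1.5-fold in either direction was held by 3 of the 8 genes and by 23.4% of all genes tested.

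Ratios within a library, which do not depend on how libraries are scaled, set the opposed receptors of heart rate side by side. The log2 ratio of Chrm2 to Adrb1 per kilobase was 3.08, 3.02 and 3.42 in KO replicates 1, 2 and 3, against 3.95, 2.98 and 3.73 in WT replicates 1, 2 and 3. The groups overlapped, and Chrm2 exceeded Adrb1 in all 6. That of Adora1 to Adrb1 was -1.91, -0.88 and -1.43 in the KO libraries and -1.83, -1.94 and -2.10 in the WT libraries, where KO replicate 1 lay within the WT range. Agtr1a to Ace ran from -0.81 to -0.47 in the KO libraries and from -1.23 to -0.07 in the WT libraries. Adra1a to Adra1b ran from -6.37 to -5.17 in the KO libraries and from -6.09 to -4.51 in the WT libraries. The planned ratio of Ednra to Ednrb could not be formed.

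The other genes of these pathways likewise gave no call. Over 7 lists of related genes, 0 of 63 genes tested passed in either direction, by library name or by genotype field. The fold changes given for these genes are by library name unless the genotype field is stated. Of the other adrenergic receptors reported here 4 of 5 were tested, 1 higher and 3 lower by name. Adra1d, the alpha-1 subtype of large arteries, had only 9 to 25 counts per library. It was at -0.59 (SE 0.49), with all KO libraries (0.511 to 0.943 CPM) below all WT libraries (1.08 to 1.10 CPM), as for 2.62% of genes. Without KO replicate 1 it was -0.38. Adra2b was at -0.13 (SE 0.61) and Adra2c at -0.12 (SE 0.73), both with overlapping groups. By genotype field Adra1d was at -0.03 (SE 0.50), with overlapping groups, Adra2b at -0.38 (SE 0.60) and Adra2c at 0.63 (SE 0.70).

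Of the renin-angiotensin genes 9 of 12 were tested, 3 higher and 6 lower by name, with a median log2 fold change of -0.27 beside -0.02 for all genes. The smallest p values belonged to Lnpep, an aminopeptidase that binds angiotensin IV, at -0.37 (SE 0.18), Enpep, the aminopeptidase that trims angiotensin II, at -0.27 (SE 0.23), and Agtrap, a protein that promotes internalisation of the angiotensin receptor, at 0.16 (SE 0.13). Agtrap was the 1 gene of the 9 whose groups did not overlap by name, beside 5.95% of all genes tested. The endothelin ligand Edn1 was at 0.26 (SE 0.44) and the converting enzyme Ece1 at 0.00 (SE 0.16). Of the adenosine genes 7 of 9 were tested, 3 higher and 4 lower, among them Slc29a2, an equilibrative nucleoside transporter, at 0.35 (SE 0.23), Ada, adenosine deaminase, at 0.68 (SE 0.46), and Nt5e, which makes adenosine from AMP, at -0.24 (SE 0.18). By genotype field Ada was at -0.14 (SE 0.50), Nt5e at 0.17 (SE 0.18), Agtrap at -0.08 (SE 0.13) and Edn1 at -0.39 (SE 0.43), each of opposite sign. Slc29a2 was at 0.15 (SE 0.24), Enpep at -0.11 (SE 0.24), Lnpep at -0.05 (SE 0.21) and Ece1 at 0.19 (SE 0.14) in that reading. Single libraries moved several of the values by library name: Lnpep was -0.19 and Enpep -0.04 without WT replicate 1, Ada 0.29 without WT replicate 1, Slc29a2 0.17 without KO replicate 1 and Nt5e -0.06 without WT replicate 3.

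Other Gq-coupled receptors had 15 of 19 members tested, 4 higher and 11 lower by name, with a median of -0.23 that was 0.05 by genotype field. Aplnr, the apelin receptor of endothelium, which is listed here although it is best known to couple to Gi, had 22.9, 26.8 and 10.6 CPM in KO replicates 1, 2 and 3, against 12.1, 14.1 and 8.86 CPM in WT replicates 1, 2 and 3. Its log2 fold change was 0.79 (SE 0.32) by library name, and the groups overlapped through KO replicate 3. P2ry2, a receptor for ATP and UTP, was at -0.29 (SE 0.17), and the serotonin receptor Htr2a at -0.64 (SE 0.54). By genotype field Aplnr was at -0.10 (SE 0.43), P2ry2 at 0.12 (SE 0.18) and Htr2a at -0.25 (SE 0.55). Of the G proteins, receptor kinases, arrestins, RGS proteins and adenylyl cyclases, 25 of 26 were tested, 9 higher and 16 lower, with a median of -0.03. Rgs3 was at 0.27 (SE 0.16) and Rgs6, which shortens Gi signalling from muscarinic receptors in the heart, at 0.19 (SE 0.14). Grk5, a receptor kinase of heart muscle, was at -0.28 (SE 0.22). The muscarinic receptor Chrm3 was at -0.25 (SE 0.26). By genotype field Chrm3 was at 0.08 (SE 0.26), Rgs3 at -0.14 (SE 0.17), Rgs6 at -0.09 (SE 0.14) and Grk5 at 0.20 (SE 0.22), each of opposite sign. By library name, leaving out 1 library gave -0.06 for Chrm3 (KO replicate 2), 0.15 for Rgs3 (WT replicate 3), -0.18 for Grk5 (WT replicate 3), 0.53 for Aplnr (KO replicate 2) and -0.36 for Htr2a (KO replicate 1).

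The 4 genes with the widest spread over the libraries were Adra1a (SD of log2 level 0.61), Adora1 (0.48), Ednrb (0.40) and Ace (0.38). Among 13586 genes with a mean of at least 1 CPM, the profile over the 6 libraries closest to that of Adora1 was that of Prokr2, with a root mean square difference of 0.061 on the log2 scale, followed by Cyp4v3 (0.081). Closest to Ace were C3 (0.061), the central complement component, and Tubb2a (0.072), a tubulin. For Ednrb they were Plac8 (0.133) and Tm6sf1 (0.134). For Adra1a they were the pseudogene Rpsa-ps5 (0.137) and Bend4 (0.172). These likenesses over 6 libraries are a description and were not tested.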

How the data were processed

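The authors deposited raw counts of reads per Ensembl gene, unnormalised, with 1 column per library. The build was GRCm38 and the tools featureCounts 1.5.0-p3, HISAT2 2.1.0, MultiQC 1.7 and FastQC 0.11.5, per the submitters' processing notes; which annotation, feature type or strand setting was used is not given in the sources used. Per the labels' protocols, libraries came from flash-frozen atria, RNeasy RNA and the TruSeq RNA Library Prep Kit v2. Positions, exon lengths and overlaps were taken from GENCODE M21 (GRCm38).

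CPM values are counts scaled by TMM-normalised library sizes. The test was the quasi-likelihood F test of edgeR 4.0.16 (R 4.3.3; robust, filterByExpr), two-sided, Benjamini-Hochberg adjusted over all 14708 genes, threshold 0.05. The SE was derived from the fold change and F. DESeq2 1.42.0 and limma-voom (limma 3.58.1), RLE scaling, no filter, the library series, a replicate block and fewer libraries were the alternatives. The scripts were tested on simulated data. Poisson and binomial intervals cover counting error only. Per the labels, replicates are separate mice. All pairs of libraries differed beyond sampling noise, with a chi-square of 18.8 to 61.9 per degree of freedom.

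The members and lists were chosen with earlier results of these data known; subtype shares, the single pair and the ventricular markers beside Adra1a were added after the values were seen. Named list genes are the up to 3 tested genes per list with the smallest p by library name. Libraries with the same replicate number deviated together, with correlations of 0.157, 0.162 and 0.121 by library name and 0.269, 0.227 and 0.121 by genotype field. By library name each KO library correlated best with the WT library of its own number. By genotype field KO replicate 3 correlated best with WT replicate 2 instead, so the pairing is less clear in that reading. The number, which comes from the sample titles, was taken to pair the libraries in both. Proteins were not used here, and 1 gene of these lists is not reported here.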

Additional observations from a re-analysis of the deposited data

How the results depend on the processing

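None of the 8 genes with counts passed an adjusted p of 0.05 under any of the 14 alternatives in either reading, nor did any of the 18 list genes named, which were rerun by library name only; Adra2c did not pass the low-count filter in the numbered series alone, nor when KO replicate 1 was left out, and could not be fitted there. The count of genes past the threshold by library name was 0 in edgeR and 0 to 4 leaving out 1 library. It was 1 with no filter on low counts, 3 in the numbered series alone and 6 without KO replicate 3 and WT replicate 2. Those 6 include Prkce, whose own level decided which libraries were left out, so its call is no result. By genotype field it was 2, with 0 to 2 leaving out 1 library, 19 in DESeq2, 1 in limma-voom, 25 with no filter, 51 with the replicate block and 7 with the library series as a covariate. Without WT replicate 3, the 4 genes called by library name were Ddx3y, Eif2s3y, Kdm5d and Uty, the Y-linked genes summed above. The WT libraries left in that fit have Y-linked sums of 1.08 and 1.09 CPM, against 78.9 to 126 CPM in the KO libraries. The cause of the other counts was not tested, except that fewer libraries enter some of these fits. The replicate block changed no call of the 8 genes in either reading, nor of the 18 list genes by library name; the list genes were not refitted with it by genotype field.

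Signs of small log2 fold changes turned. By library name, the numbered series alone gave 0.0403 for Adra1b, -0.0129 for Adrb1, 0.21 for Ednrb and 0.21 for Adra2b, and leaving out KO replicate 3 and WT replicate 2 gave 0.33 for Adra1a, 0.25 for Ace, 0.42 for Adra2b, 0.48 for Adra2c and 0.0723 for Ece1. Adra2b was 0.28 in limma-voom and 0.0572 with the replicate block. Ece1, at -0.001 in the main fit, was 0.00702 with RLE normalisation, 0.00874 in DESeq2, 0.00237 in limma-voom, 0.00526 with no filter, 0.00162 with the replicate block and 0.0023 with the library series. By genotype field, Chrm2 was 0.16 in the numbered series alone, and Agtr1a 0.14 without KO replicate 2 and WT replicate 3. Leaving out 1 library in turn by library name gave -0.78 to 0.0304 for Adra1a, -0.19 to 0.19 for Adra1b, -0.0541 to 0.19 for Adrb1, -0.0228 to 0.28 for Agtr1a, -0.28 to 0.14 for Ednrb, -0.33 to 0.0745 for Ace, -0.62 to 0.26 for Adra2b, -0.31 to 0.39 for Adra2c, -0.22 to 0.67 for Edn1 and -0.0872 to 0.10 for Ece1. By genotype field it gave -0.25 to 0.12 for Adra1b, -0.0318 to 0.21 for Adrb1, -0.35 to 0.18 for Chrm2 and -0.24 to 0.10 for Agtr1a. The direction of Chrm2 and Adora1 by library name, and of Adra1a, Ednrb, Adora1 and Ace by genotype field, held in all 14. Depth limits Adra1a, at 13 to 32 counts a library. Scaling by total counts left each level per kilobase within 1 SD.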
